A study of Mus musculus with 6 samples.

Results

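The LPA and S1P receptors and enzymes are 10 genes, taken by symbol from the 25140 genes for which read counts were deposited. They are *Lpar1*, *Lpar2*, *Lpar3*, *Lpar4* and *Lpar6*, which encode receptors for lysophosphatidic acid (LPA), *S1pr1*, *S1pr2* and *S1pr3*, which encode receptors for sphingosine 1-phosphate (S1P), and *Sphk1* and *Enpp2*, which encode enzymes that make the ligands. LPA and S1P are signalling lipids in blood plasma and tissue fluid that act through G protein-coupled receptors on the cell surface. Autotaxin, the secreted product of *Enpp2*, cuts extracellular lysophospholipids to LPA, and sphingosine kinases phosphorylate sphingosine to S1P inside the cell. In fibroblasts both lipids are known to act through Gi, Gq and G12/13 proteins on migration, survival and contraction, and both have been studied as mediators of fibrosis.

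RNA-seq was performed on passage 1 primary cardiac fibroblasts from C57BL/6 mice, in 3 libraries of vehicle-treated cells and 3 libraries of cells given TGFβ at 10 ng/ml for 24 h. TGFβ is the cytokine used to turn fibroblasts into contractile, matrix-producing myofibroblasts, and the comparison asks which transcripts change as this happens. By the labels the cells came from adult hearts and grew in 25 mM glucose DMEM with 10% FBS. They were kept in 1% FBS for 16 h before treatment and also during it, the vehicle cells included. For the time in 1% FBS before treatment the study's methods give 24 h. The methods of the study also name cardiac fibroblasts, with 3 biological replicates, whereas its results call the cells mouse embryonic fibroblasts. The animals' sex and age beyond adult, and whether hearts were pooled, are not given in the sources used here. The count columns carry the group but no replicate number, so the libraries of each group are called a, b and c in column order. Whether libraries that share a letter were paired is not given in the sources used here.

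The libraries held 27851677 to 31072338 counted reads, and 14334 genes had enough reads to be tested. Of 9 genes known to respond to TGFβ, 7 were higher with it and none lower. All 10 fibroblast markers were expressed, with means over all libraries of 67.8 CPM or more (CPM are reads of a gene over the TMM-scaled library size). Of the 10 markers, 8 were lower with TGFβ. The summed level of the 10 was 53480 to 63310 CPM with vehicle and 49900 to 55760 CPM with TGFβ. Of the 7 cardiomyocyte markers listed, 6 had a mean under 1 CPM, and *Tnnt2* was the exception at 26.6 to 58.3 CPM. All 12 endothelial markers were detected, with means over all libraries of 13.5 CPM or more, so the cultures were not free of endothelial transcripts. Their summed level was 537 to 835 CPM with vehicle and 489 to 685 CPM with TGFβ, with no marker called and the highest sum of each group in library c. Mesothelial markers summed to 24.3 to 86.1 CPM and 15.4 to 43.7 CPM, with none called, and of 9 smooth muscle and pericyte markers 1 was lower and 2 were higher (sums of 440.4 to 522 CPM and 335 to 423 CPM). The part of these cell types in the results was not tested.

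With TGFβ, 7 of the 10 genes fell and none rose (edgeR's quasi-likelihood test, Benjamini-Hochberg adjusted p under 0.05 over all genes tested). *S1pr3*, *Lpar3* and *Enpp2* fell the most, to 23.5%, 30.4% and 40.0% of their vehicle means. *Lpar1*, *Sphk1*, *S1pr2* and *Lpar4* fell to between 65.9% and 79.4%, whereas *Lpar2*, *Lpar6* and *S1pr1* did not pass the threshold. Among all genes tested, 20.1% were called lower and 20.5% higher. The median log2 fold change of the 10 genes was -0.36, against -0.001 for all genes tested. All 10 were tested, but *Lpar3* reached the level of the low-count filter, 10 reads in a library of median size, with vehicle alone. Of the 9 genes that reached it in both groups, 6 fell, with a median log2 fold change of -0.35. For each of the 7 genes that fell, every TGFβ library lay below every vehicle library, which was the case for 26.1% of all genes tested. These are bulk samples, in which fewer cells of a type and less RNA per cell cannot be told apart.

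**Figure D1:**
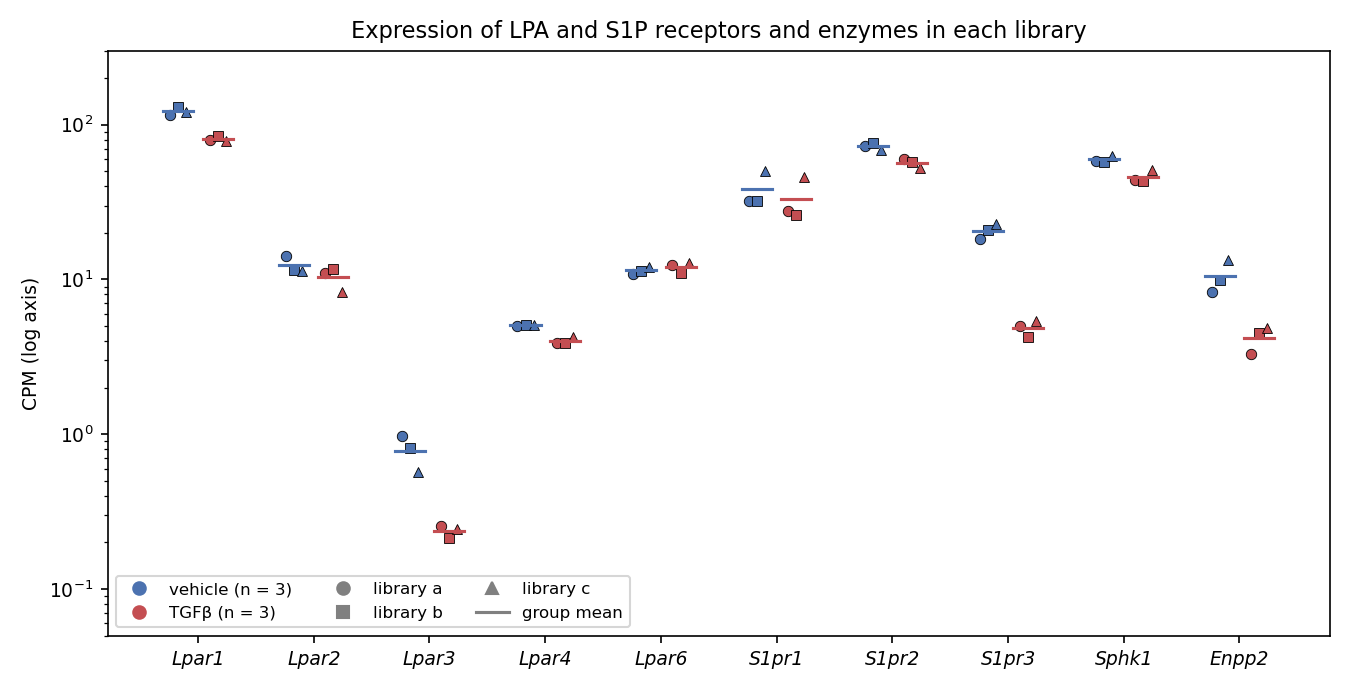
Expression of the 10 genes in each library, as CPM on a log axis. Points are libraries a (circles), b (squares) and c (triangles) of the vehicle group (blue) and the TGFβ group (red), and lines are group means (n = 3). The groups are apart for all genes but *Lpar2*, *Lpar6* and *S1pr1*, and *S1pr1* has its highest point in library c of each group.

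The sequence upstream of 4 receptor genes is shown because they span the range of responses and the reference lists a single start for each: *S1pr3* and *Lpar3*, the receptors with the largest falls, *S1pr2*, with a small fall, and *Lpar6*, which was not called. Each is the 250 bases before the start, 5′ to 3′ on the gene's strand, from RefSeq (GRCm38.p6). Capitals mark the letters CAGAC (a SMAD element), TGANTCA (AP-1), GGAATG (TEAD) and GGGCGG (a GC box), searched on both strands, so that a match on the opposite strand appears as its reverse complement.
*S1pr3*, chr13:51408368-51408617, plus strand: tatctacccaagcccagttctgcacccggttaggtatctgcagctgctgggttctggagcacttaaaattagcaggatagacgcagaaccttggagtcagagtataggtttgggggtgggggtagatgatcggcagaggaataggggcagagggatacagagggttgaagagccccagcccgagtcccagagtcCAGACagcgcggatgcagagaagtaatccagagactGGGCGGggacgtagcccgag
*Lpar3*, chr3:146220711-146220960, plus strand: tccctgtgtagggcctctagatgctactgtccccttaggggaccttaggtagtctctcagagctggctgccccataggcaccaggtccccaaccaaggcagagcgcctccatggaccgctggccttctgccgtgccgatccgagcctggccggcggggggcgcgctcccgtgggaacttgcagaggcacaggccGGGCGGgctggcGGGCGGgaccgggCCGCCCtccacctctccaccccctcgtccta
*S1pr2*, chr9:20976794-20977043, minus strand: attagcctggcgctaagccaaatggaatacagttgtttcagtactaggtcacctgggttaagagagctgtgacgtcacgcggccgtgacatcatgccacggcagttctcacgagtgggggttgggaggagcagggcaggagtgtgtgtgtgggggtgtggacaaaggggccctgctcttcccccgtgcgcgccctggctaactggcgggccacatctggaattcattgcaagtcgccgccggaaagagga
*Lpar6*, chr14:73237641-73237890, plus strand: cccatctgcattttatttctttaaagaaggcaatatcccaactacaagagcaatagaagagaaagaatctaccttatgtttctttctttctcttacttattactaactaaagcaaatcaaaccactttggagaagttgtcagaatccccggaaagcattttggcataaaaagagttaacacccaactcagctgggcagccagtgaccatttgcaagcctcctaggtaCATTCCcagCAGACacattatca

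The *S1pr3* sequence held 1 CAGAC and 1 GGGCGG, the *Lpar3* sequence 3 GGGCGG and none of the others, and the *S1pr2* sequence no match. The *Lpar6* sequence, from the gene that was not called, held 1 CAGAC and 1 GGAATG. No match overlapped another in these 4 sequences. Their GC content was 56.4% (*S1pr3*), 69.6% (*Lpar3*), 59.2% (*S1pr2*) and 39.2% (*Lpar6*), beside a median of 52.4% over the 32851 promoters of the reference. The reference lists 14 promoters for 8 of the 10 genes, several of which overlap. CAGAC was in 5 of the 14 and in 42.2% of all promoters, GGGCGG in 6 and in 32.7%, TGANTCA in 3 and in 6.75%, and GGAATG in 2 and in 12.6%. The 3 promoters with TGANTCA were that of *Lpar2* and 2 overlapping ones of *Sphk1*. A match is a run of letters and not a measured binding site.

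Among the LPA receptors, *Lpar1* (ENSMUSG00000038668, chr4:58435255-58553898 in GRCm38, minus strand), the most widely expressed receptor of its family, was the most abundant. It was measured at 115, 130.0 and 121 CPM with vehicle and at 79.1, 84.3 and 78.0 CPM with TGFβ. The groups were well apart, with the lowest vehicle library above the highest TGFβ library by more than either group's spread. Means of 122 ± 7.48 CPM and 80.5 ± 3.37 CPM (SD, n = 3 each) gave a log2 fold change of -0.60 (SE, the standard error, 0.06, 95% interval -0.73 to -0.47, edgeR adjusted p = 0.000156).

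*Lpar3* (ENSMUSG00000036832, chr3:146220963-146286186, plus strand) had the largest fall among the LPA receptors and the fewest reads, and it passed the low-count filter only through the vehicle libraries, where it was higher, so that a difference was favoured. Its receptor couples mainly to Gq and Gi and is known for its role in embryo implantation. Only 31, 24 and 17 reads were counted with vehicle and 7, 6 and 7 reads with TGFβ, which gave 0.974, 0.809 and 0.570 CPM and 0.256, 0.215 and 0.246 CPM. Counting error alone accounts for an SD of 0.161 CPM around the vehicle mean, where the libraries had an SD of 0.203 CPM (n = 3). The groups did not overlap, and vehicle c, the lowest of its group, was still well above every TGFβ library. The log2 fold change was -1.70 (SE 0.30, 95% interval -2.41 to -0.996, edgeR adjusted p = 0.00342).

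*Lpar4* and *Lpar6* encode LPA receptors that resemble the purinergic P2Y receptors. *Lpar4* (ENSMUSG00000049929, chrX:106920625-106933900, plus strand) was at 5.03, 5.09 and 5.06 CPM with vehicle and at 3.91, 3.87 and 4.28 CPM with TGFβ. The vehicle libraries were closer to each other than counting error alone would give, an SD of 0.0316 CPM against 0.408 CPM. Its log2 fold change was -0.33 (SE 0.10, 95% interval -0.56 to -0.10, edgeR adjusted p = 0.0306). This call was not stable: it was lost with DESeq2 (adjusted p = 0.118), without a filter on low counts (0.0644 from edgeR) and without any one of vehicle a (0.0665), vehicle b (0.088), vehicle c (0.0713), TGFβ a (0.0835) and TGFβ b (0.0922).

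*Lpar6* (ENSMUSG00000033446, chr14:73237895-73243294, plus strand) was at 10.8, 11.3 and 12.1 CPM with vehicle and at 12.5, 11.0 and 12.7 CPM with TGFβ, and the groups overlapped. The log2 fold change was 0.08 (95% interval -0.11 to 0.27, edgeR adjusted p = 0.475), an interval that leaves out a fall as large as that of *Lpar1*. *Lpar6* lies wholly within *Rb1*, which is on the opposite strand, shares 408 bases of exon with it and had 315% as many reads. Whether strand was used in counting is not given in the sources used here, so the count of *Lpar6* is uncertain. *Rb1* had a log2 fold change of 0.08 (edgeR adjusted p = 0.379).

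*Lpar2* (ENSMUSG00000031861, chr8:69822429-69831102, plus strand) encodes a receptor that couples to Gi, Gq and G12/13 like that of *Lpar1*. It was at 14.2, 11.5 and 11.4 CPM with vehicle and at 11.0, 11.6 and 8.31 CPM with TGFβ. The groups overlapped, with TGFβ b above vehicle b and vehicle c. The difference on the log2 scale was -0.26 (SE 0.14, 95% interval -0.60 to 0.07, edgeR adjusted p = 0.178). A further LPA receptor gene, *Lpar5*, had 15 reads over the vehicle libraries and 8 over the TGFβ libraries, too few to be tested.

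Among the S1P receptors, *S1pr3* (ENSMUSG00000067586, chr13:51408639-51422797, plus strand) had the largest fall of the 10 genes. Its receptor couples to Gi, Gq and G12/13. It was measured at 18.4, 20.8 and 22.8 CPM with vehicle and at 4.97, 4.23 and 5.37 CPM with TGFβ, from 584 to 681 and from 118 to 153 reads. All 3 TGFβ libraries were far below all 3 vehicle libraries. The means were 20.7 ± 2.24 CPM and 4.86 ± 0.580 CPM (SD, n = 3 each), and the log2 fold change was -2.09 (SE 0.12, 95% interval -2.36 to -1.82, edgeR adjusted p = 1.59e-05). Ordered from the most negative log2 fold change, *S1pr3* was gene 91 of the 14334 tested, *Lpar3* gene 189, *Enpp2* gene 378 and *Lpar1* gene 1533. Of these, *Lpar3* passed the low-count filter through the vehicle libraries alone.

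*S1pr2* (ENSMUSG00000043895, chr9:20962361-20976781, minus strand), whose receptor couples mainly to G12/13, had a smaller fall. It was at 72.6, 75.9 and 68.8 CPM with vehicle and at 60.0, 57.6 and 52.8 CPM with TGFβ. The groups did not overlap. The log2 fold change was -0.35 (SE 0.06, 95% interval -0.49 to -0.21, edgeR adjusted p = 0.00256), and this interval does not meet that of *S1pr3*.

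*S1pr1* (ENSMUSG00000045092, chr3:115710433-115715072, minus strand) encodes the Gi-coupled receptor known for its high expression in endothelial cells and for guiding lymphocytes out of lymphoid organs. It was at 32.3, 32.2 and 50.4 CPM with vehicle and at 27.7, 26.2 and 45.8 CPM with TGFβ. Library c was high in both groups, and TGFβ c lay above vehicle a and vehicle b, so the groups overlapped. The log2 fold change was -0.20 (SE 0.25, 95% interval -0.78 to 0.38, edgeR adjusted p = 0.552). It was 0.04 without vehicle c and -0.51 without TGFβ c (edgeR adjusted p = 0.905 and 0.085). Without both, a comparison added after the values were seen, it was -0.26 with an adjusted p of 0.0116 from edgeR.

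The summed endothelial markers were highest in the same libraries as *S1pr1*. One marker, *Tek*, went the other way and was lowest in library c, at 74.6 CPM (vehicle) and 83.8 CPM (TGFβ). The marker sum in library c was 1.47 times the mean of a and b with vehicle and 1.33 times with TGFβ. The level of *S1pr1* was 1.56 and 1.70 times. Per 1000 CPM of endothelial markers, *S1pr1* was at 60.2, 53.5 and 60.3 CPM with vehicle and at 56.6, 48.7 and 66.8 CPM with TGFβ. On this scale vehicle c no longer stood apart from vehicle a, whereas TGFβ c was still the highest of its group. The groups overlapped. Summed leukocyte markers (8 of 10 tested, 1 called lower) were also highest in library c, at 367 CPM (vehicle) and 327 CPM (TGFβ), and lay between 220 and 268 CPM in the other 4 libraries. So were the sums of the fibroblast markers (63310 and 55760 CPM) and of the smooth muscle and pericyte markers (522 and 423 CPM). The mesothelial and cardiomyocyte sums were highest in library a of each group. The part of these cells in the *S1pr1* values was not tested.

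Of the genes that fell, *Enpp2* was also higher in library c, at 1.48 times the mean of a and b with vehicle and 1.26 times with TGFβ. To a lesser degree *S1pr3* (1.17 times in both groups) and *Sphk1* (1.09 times with vehicle and 1.16 times with TGFβ) were highest there too. Per 1000 CPM of endothelial markers, *Enpp2* was at 15.4, 16.4 and 16.1 CPM with vehicle and at 6.73, 8.31 and 7.11 CPM with TGFβ, without overlap. The marker sum itself differed far less between the groups (means of 658 and 571 CPM), so this scale could hardly close a fall of that size. *S1pr3* on the same scale was at 34.2, 34.6 and 27.3 CPM with vehicle and at 10.2, 7.85 and 7.83 CPM with TGFβ, again without overlap. The groups of *Lpar3* did not overlap either, but it passed the low-count filter through the vehicle libraries alone, so that a difference was favoured. Its closest libraries on this scale, vehicle c (0.682 CPM) and TGFβ a (0.523 CPM), had only 17 and 7 reads. The groups of *Lpar1*, *Lpar4*, *S1pr2* and *Sphk1* overlapped. In library c *Lpar1* was at 0.99 times the mean of a and b with vehicle and 0.95 times with TGFβ. *Lpar4* was at 1.0 and 1.1 times and *S1pr2* at 0.93 and 0.90 times. Dividing by a sum that was highest in library c widened the spread of these genes. With their smaller falls an overlap was favoured on this scale, so it cannot decide on their source. The part of endothelial cells in these values was not tested. Without vehicle c and TGFβ c, a comparison added after the values were seen, 7 of the 10 genes were called lower. They included *S1pr1* but not *Lpar4* (edgeR adjusted p = 0.06 for *Lpar4*). *S1pr1* was high in the omitted libraries, so that leaving them out narrowed its spread. Among all genes tested in that comparison, 2687 of 14405 were called lower.

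**Figure D2:**
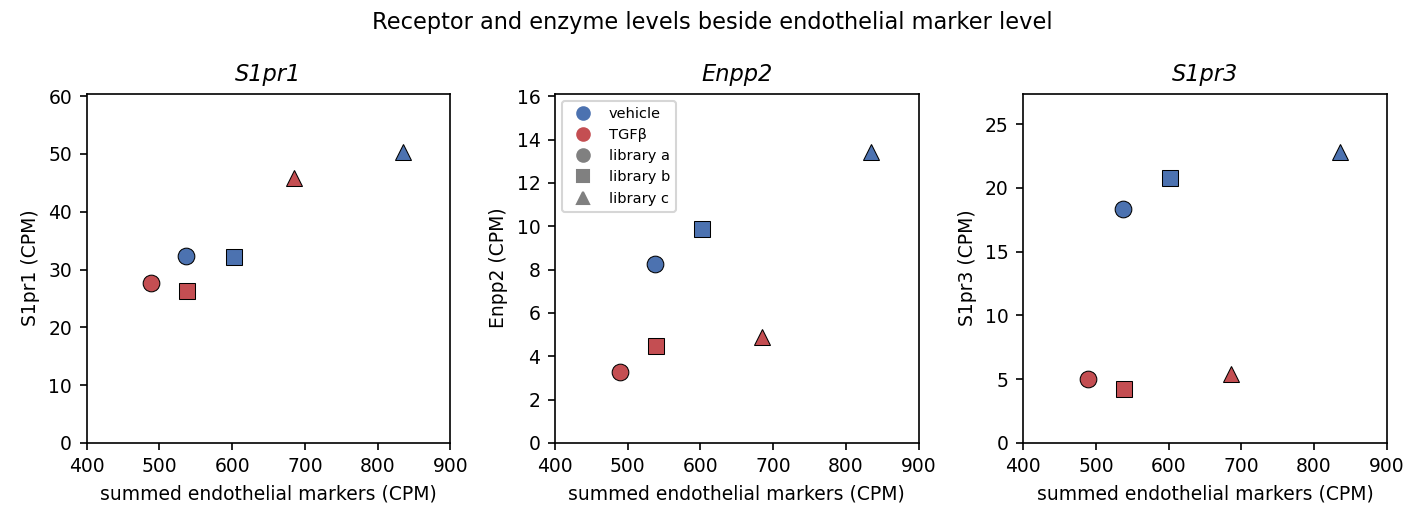
Level of *S1pr1*, *Enpp2* and *S1pr3* (CPM, y axes from 0) against the summed level of 12 endothelial markers (CPM) in each of the 6 libraries, with vehicle in blue, TGFβ in red and the letter of the library as the symbol. Library c of each group is the farthest right, at 835 CPM (vehicle) and 685 CPM (TGFβ), and *S1pr1* is highest there, whereas the red points of *Enpp2* and *S1pr3* all lie below the blue ones.

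The other S1P receptors were close to the limit of detection. *S1pr4* had 28 reads over the vehicle libraries and 18 over the TGFβ libraries, and *S1pr5* had 2 and 4. In TGFβ b no *S1pr4* read was counted, which allows a level of up to 3 reads, or 0.11 CPM. Differences between groups in *Lpar5*, *S1pr4* and *S1pr5* were not detectable at this depth.

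Both enzymes fell. *Enpp2* (ENSMUSG00000022425, chr15:54838901-54952892, minus strand), the gene of autotaxin, was at 8.26, 9.88 and 13.4 CPM with vehicle and at 3.29, 4.48 and 4.88 CPM with TGFβ. All TGFβ libraries were below all vehicle libraries, although the vehicle libraries were spread widely. The means were 10.5 ± 2.65 CPM and 4.21 ± 0.825 CPM (SD, n = 3 each), and the log2 fold change was -1.32 (SE 0.21, 95% interval -1.81 to -0.83, edgeR adjusted p = 0.00203).

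*Sphk1* (ENSMUSG00000061878, chr11:116530925-116536674, plus strand), the more inducible of the sphingosine kinases, was at 58.0, 57.7 and 63.0 CPM with vehicle and at 44.2, 43.3 and 50.7 CPM with TGFβ. Its log2 fold change was -0.37 (SE 0.07, 95% interval -0.53 to -0.21, edgeR adjusted p = 0.00399). An antisense gene that overlaps it, *Gm29292*, had 2.8% as many reads. The second kinase, *Sphk2*, was at 29.7, 30.6 and 30.9 CPM with vehicle and at 28.1, 29.2 and 30.0 CPM with TGFβ. These groups overlapped, and the log2 fold change of *Sphk2* was -0.06 (95% interval -0.17 to 0.05, edgeR adjusted p = 0.323).

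**Figure D3:**
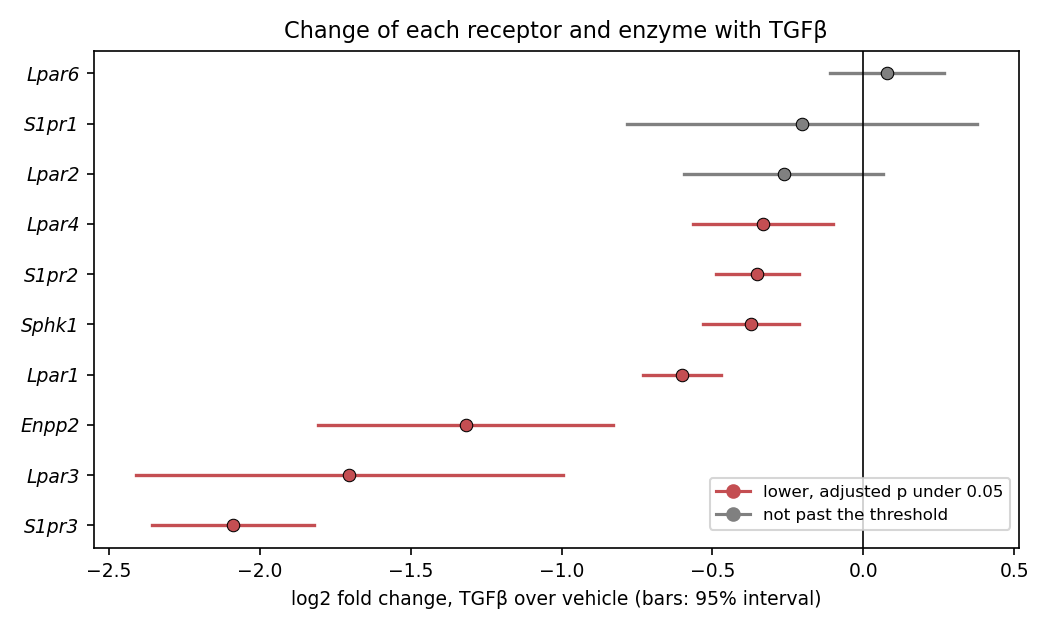
Log2 fold change of each gene, TGFβ over vehicle, with its 95% interval (bars) from edgeR's quasi-likelihood fit on 3 against 3 libraries. Red marks the 7 genes called lower and grey the 3 not called. *S1pr3* is lowest at -2.09, followed by *Lpar3* and *Enpp2*, and *S1pr1* has a wide interval that holds 0.

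An exact permutation test on CPM (two-sided) gave p = 0.1 for each of the 7 genes that fell, the smallest value it can give with 3 against 3 libraries. The permutation test could therefore not pass 0.05 for any gene, and the calls rest on the fit across all genes. Apart from *Lpar4*, every called gene stayed called under all alternatives that gave a value for it, the omission of each library in turn included. Under these the log2 fold change lay between -2.17 and -2.00 for *S1pr3*, between -1.91 and -1.51 for *Lpar3* and between -1.47 and -1.10 for *Enpp2*. *Lpar3* had no value under the filter of 1 CPM in 3 libraries. It passed the main low-count filter through the vehicle libraries alone, so that a difference was favoured.

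Levels of different genes were compared per length, as RPKM (here the CPM divided by the annotated exon length in kilobases). With vehicle, *Lpar1* was highest at a mean of 28.5 RPKM, followed by *S1pr1* at 12.6 RPKM and *Sphk1* at 12.5 RPKM, whose ranges over the libraries overlapped. *S1pr2* was next at 9.08 RPKM and *S1pr3* at 4.63 RPKM, each apart from its neighbours. *Lpar2*, *Lpar6* and *Enpp2* followed at 2.12, 2.12 and 1.82 RPKM with overlapping ranges, then *Lpar4* at 1.19 RPKM and *Lpar3* at 0.318 RPKM.

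With TGFβ the first 4 genes kept this order by mean level, at 18.8 RPKM for *Lpar1*, 10.9 RPKM for *S1pr1*, 9.64 RPKM for *Sphk1* and 7.12 RPKM for *S1pr2*, and the ranges of *S1pr1* and *Sphk1* overlapped again. *S1pr3* moved from the fifth to the seventh place, at 1.09 RPKM, behind *Lpar6* at 2.23 RPKM and *Lpar2* at 1.77 RPKM. Its range overlapped that of *Lpar4* at 0.948 RPKM. *Enpp2* at 0.729 RPKM and *Lpar3* at 0.0969 RPKM were lowest. With the length of the longest annotated transcript in place of all exons, *Sphk1* came before *S1pr1* in both groups. The level of *Enpp2* came to 3.40 RPKM (vehicle) and 1.36 RPKM (TGFβ), ahead of *Lpar2* and of *S1pr3* respectively. With this length the ranges of *S1pr1* and *S1pr2* overlapped in both groups, as did those of *S1pr3* and *Enpp2*.

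The makeup of each receptor family is given as the share of its summed RPKM and as a description without a test. *Lpar1* made up 83.2% ± 1.38 of the LPA receptor level with vehicle and 78.8% ± 0.832 with TGFβ (SD, n = 3 each), so that 1 receptor gene held most of the family in both groups. The share of *Lpar6* went from 6.19% ± 0.394 to 9.41% ± 1.01 and that of *Lpar2* from 6.23% ± 1.03 to 7.41% ± 1.07 (SD, n = 3 each). A share can grow without a rise of the gene, and neither gene was called (log2 fold changes of 0.08 and -0.26). The count of *Lpar6* is also uncertain because of its overlap with *Rb1*. The sum of the 5 LPA receptors was 34.2 ± 1.55 RPKM with vehicle and 23.8 ± 0.822 RPKM with TGFβ (SD, n = 3 each).

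The S1P receptors were more evenly spread. *S1pr1* held 47.3% ± 6.41 of their summed level with vehicle and 56.1% ± 8.36 with TGFβ, and *S1pr2* held 35.1% ± 5.68 and 38.2% ± 7.96 (SD, n = 3 each). For both genes the shares of the groups overlapped. The share of *S1pr3* was 17.3%, 18.8% and 16.9% with vehicle and 6.29%, 5.64% and 5.26% with TGFβ. The ratio of *S1pr3* to *S1pr2* per length was 0.452, 0.490 and 0.593 with vehicle and 0.148, 0.131 and 0.182 with TGFβ. Their sum with *S1pr1* was 26.3 ± 3.49 RPKM and 19.1 ± 3.27 RPKM (SD, n = 3 each).

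**Figure D4:**
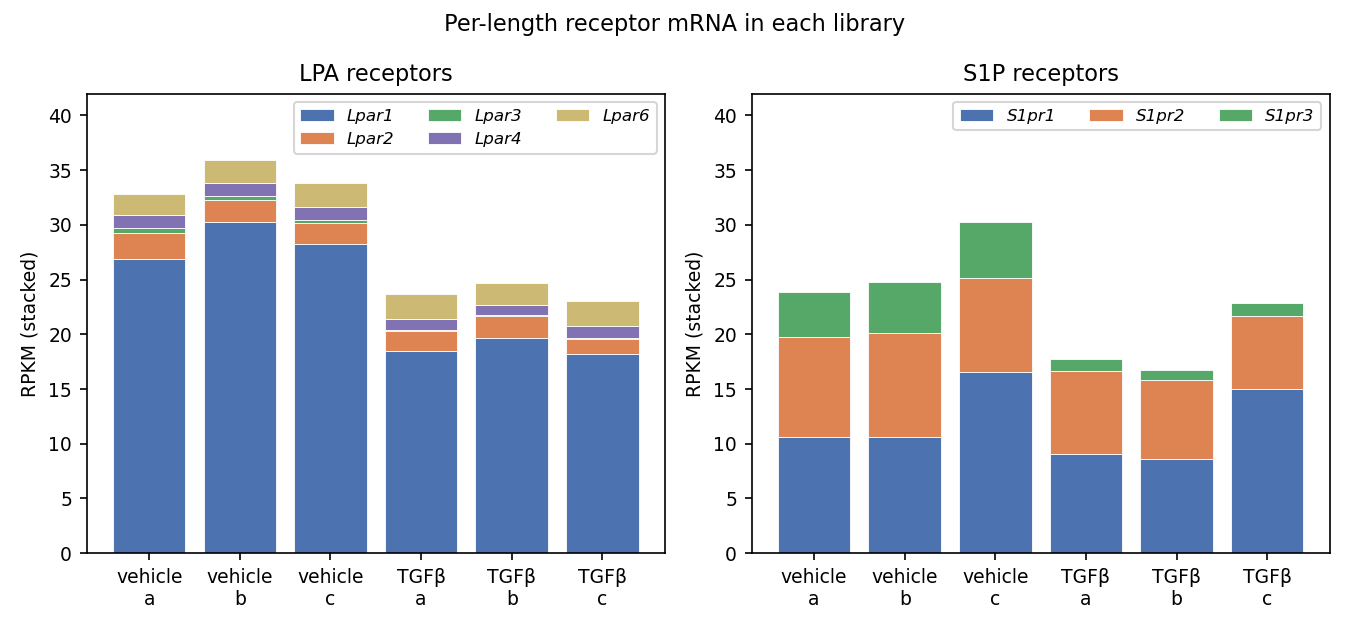
Stacked RPKM of the LPA receptors (left) and the S1P receptors (right) in each library, y axis from 0. *Lpar1* fills most of each left bar, and the bars are lower with TGFβ, at 23.1 to 24.7 RPKM against 32.9 to 35.9 RPKM. On the right, *S1pr3* shrinks with TGFβ, and *S1pr1* is largest in library c of each group.

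The remaining genes of the pathways were read from 3 lists of 57 genes, of which 50 could be tested. Of these, 16 were lower and 14 higher with TGFβ, 30 of 50 in all, where 40.7% of all genes tested were called. Their median log2 fold change was -0.01, beside -0.36 for the 10 receptors and enzymes. The rises included *Mfsd2b*, which passed the low-count filter only through the TGFβ libraries, where it was higher, so that a difference was favoured. The near balance of directions depended on the libraries. Without vehicle b 12 were lower and 7 higher, without vehicle c 13 and 7, and without TGFβ b 14 and 7. The counts were 15 and 9 without TGFβ c, 14 and 8 without both libraries c, and 11 and 4 at an adjusted p under 0.01. They were closer with other alternatives, at 14 and 11 without vehicle a, 12 and 11 without TGFβ a, and 13 and 11 with DESeq2. Among all genes tested the calls also fell, from 5828 to 4489 without vehicle b and to 3595 at an adjusted p under 0.01.

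Of 15 tested genes of LPA synthesis and breakdown, 5 were lower and 4 higher, beside 20.1% and 20.5% of all genes tested. The median log2 fold change of the 15 was -0.03, and 2 were higher without vehicle b, TGFβ a or TGFβ b. *Plpp3*, a phosphatase of the cell surface that breaks down extracellular LPA and S1P, fell the most. Its level was 315, 349 and 349 CPM with vehicle and at 103, 115 and 113 CPM with TGFβ, a log2 fold change of -1.61 (SE 0.06, edgeR adjusted p = 4.78e-06). The TGFβ libraries were at about the same level as each other and far below the vehicle libraries. *Mboat1*, a lysophospholipid acyltransferase, went from 6.07, 6.34 and 6.20 CPM to 2.45, 2.51 and 2.46 CPM (log2 fold change -1.33, SE 0.10, edgeR adjusted p = 6.14e-05). *Plpp1*, a phosphatase related to *Plpp3*, fell less, with a log2 fold change of -0.41 (edgeR adjusted p = 0.000334). The largest of the 4 rises was a log2 fold change of 0.37.

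Of 16 tested genes of S1P breakdown, transport and sphingosine supply, 9 were lower and 5 higher, beside 20.1% and 20.5% of all genes tested. The median log2 fold change of the 16 was -0.15. Most of the rises were lost under several alternatives, with 6 lower and 2 higher without vehicle b, 6 and 1 without vehicle c, and 7 and 2 without TGFβ b. Without TGFβ c the counts were 8 and 2, without both libraries c 7 and 1, and at an adjusted p under 0.01 they were 6 and 0. More rises held without vehicle a (8 and 3) and without TGFβ a (6 and 4). *Spns2*, which exports S1P from cells, was at 18.5, 25.4 and 24.4 CPM with vehicle and at 7.53, 7.52 and 9.65 CPM with TGFβ (log2 fold change -1.47, SE 0.15, edgeR adjusted p = 0.000233). *Abca1*, a lipid transporter known for cholesterol export, went from 89.5, 86.2 and 88.0 CPM to 35.0, 38.8 and 26.8 CPM (log2 fold change -1.39, SE 0.12, edgeR adjusted p = 9.47e-05). Both transporters had groups that did not overlap. The S1P lyase *Sgpl1* and the S1P phosphatase *Sgpp1*, which degrade S1P inside the cell, fell slightly, with log2 fold changes of -0.17 and -0.12 (edgeR adjusted p = 0.0168 and 0.033). *Mfsd2b*, the S1P exporter of red cells and platelets, rose from 2, 6 and 9 reads to 17 reads in each TGFβ library, a log2 fold change of 1.68 (SE 0.42, edgeR adjusted p = 0.0141) at 0.609 CPM or less in the group means. It passed the low-count filter only through the TGFβ libraries, where it was higher, so that a difference was favoured.

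Of 19 genes for the G proteins and the signalling steps downstream of the receptors, 2 were lower, 5 higher and 12 not called. Among all genes tested 20.1% were lower and 20.5% higher. The median log2 fold change of the 19 was 0.01, and 1 was lower and 3 were higher without vehicle b. The one change of at least 0.5 was in *Gnai1*, an inhibitory G protein α subunit, at 26.3, 25.2 and 29.0 CPM with vehicle and 18.0, 16.3 and 20.2 CPM with TGFβ. Its log2 fold change was -0.56 (SE 0.09, edgeR adjusted p = 0.00201). The largest rise in this list was 0.28 on the log2 scale.

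**Figure D5:**
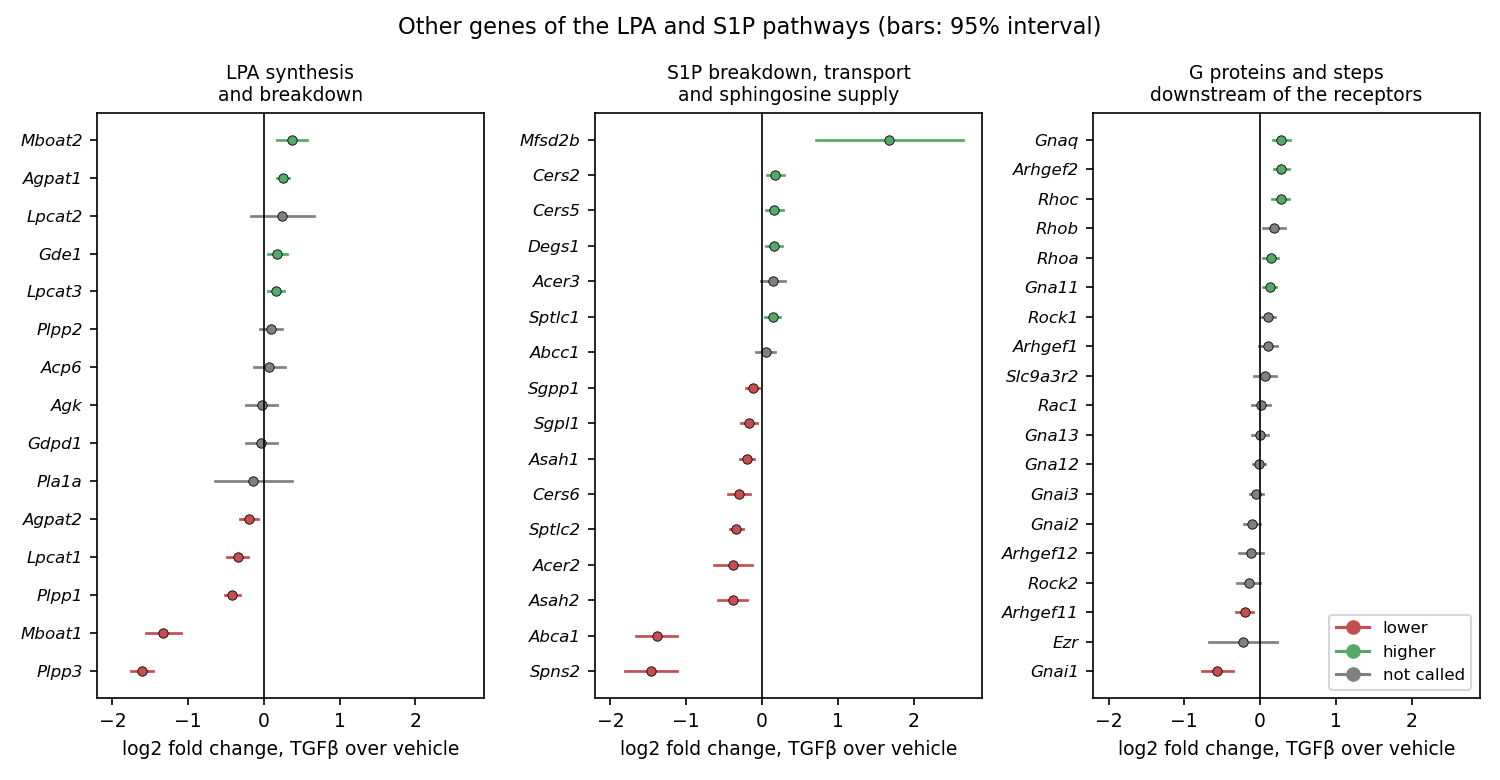
Log2 fold change, TGFβ over vehicle, with 95% interval (bars) for the tested genes of the 3 pathway lists, in red where called lower, green where called higher and grey where not called. *Plpp3*, *Mboat1*, *Spns2* and *Abca1* lie below -1, *Mfsd2b* has a wide interval around 1.68, and most genes of the G protein list lie close to 0.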

How the data were processed

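RNA-seq libraries were made from poly(A) RNA with a stranded kit and read as single-end reads of 75 bases. The authors aligned reads to mm10 and used DESeq2. The aligner, the counter, the annotation and the use of strand in counting are not given in the sources used here. The deposited table gives unnormalized whole-number read counts for 25140 genes in each library. It also holds the authors' mean, fold change, its error, test statistic, p-value and adjusted p, which were not used. All 6 count columns were mapped to groups by name. Counts differed between libraries of a group by more than sampling noise (chi-square of 7.95 to 27.14 per gene), so that none was taken for a duplicate.

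Here edgeR 4.0.16 (R 4.3.3) gave TMM factors, the filterByExpr filter, and the quasi-likelihood test with no covariate, with Benjamini-Hochberg adjustment across all genes that passed and 0.05 as threshold. CPM are counts over TMM-scaled library sizes. Exon lengths and positions came from GENCODE M21 (25086 gene identifiers matched). The share of 75-base windows of each of the 10 genes that occur in other genes was 0%, except for *S1pr2* (0.05%). Limits against a count of 0 use 3 reads and cover counting error only. Alternatives were DESeq2's size factors, upper quartile scaling, DESeq2 1.42.0, limma-voom (limma 3.58.1), no filter, 1 CPM in 3 libraries, each library left out, and an adjusted p of 0.01. The genes, the lists and the naming rule were chosen with earlier results of these data known. Named were the 10 genes, the rest of both receptor families, *Sphk2*, *Plpp1*, *Plpp3*, *Sgpl1*, *Sgpp1*, *Spns2*, and pathway genes past the threshold whose log2 fold change was 0.5 or more in size, at most 5 in each direction a list. Marker genes were named only where a result turned on them, and 1 marker near 0 is not reported here. *Tnnt2*, *Tek*, *Rb1* and *Gm29292* were named after their values were seen.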

Additional observations from a re-analysis of the deposited data

How the results depend on the processing

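Of the 10 genes, 6 to 7 were called lower and none higher under every alternative. The difference in number is the call of *Lpar4* or, under the filter of 1 CPM in 3 libraries, the absence of a value for *Lpar3*. Among all genes tested, the number called lower lay between 1740 of 14334 (adjusted p under 0.01) and 3076 of 14334 (upper quartile scaling). It was 2812 of 12731 under the filter of 1 CPM in 3 libraries. Without vehicle c and TGFβ c, 7 of the 10 genes were called, with *S1pr1* in place of *Lpar4*. Of all genes tested in that comparison, 2687 of 14405 were lower. The log2 fold change of *Lpar4* was -0.34 with DESeq2 and -0.33 without a filter on low counts, between -0.39 and -0.31 with each library left out, and -0.38 without vehicle c and TGFβ c (adjusted p = 0.118, 0.0644, 0.0346 to 0.0922 and 0.06). That of *S1pr1* lay between -0.51 and 0.04 with each library left out, the positive value being without vehicle c, and was -0.26 without vehicle c and TGFβ c (adjusted p = 0.0116 from edgeR). The omission of both libraries was chosen after seeing the data. At an adjusted p under 0.01, 3595 genes were called in place of 5828, and 15 pathway genes (11 lower, 4 higher) in place of 30. With each library left out the pathway genes called numbered 19 (without vehicle b) to 25. With the longest transcript as length, *Lpar1* was 85.6% (vehicle) and 81.8% (TGFβ) of the LPA receptors and *S1pr3* 16.3% of the S1P receptors with vehicle. No paired analysis was possible because the count columns carry no replicate number. The precision is limited by 3 libraries a group and, for *Lpar3*, by at most 31 reads in a library. Gene counts do not separate transcripts or cell types.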
